A study of Homo sapiens with 18 samples.

Results

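ORM1 and DEFB1 encode small secreted proteins of innate defence, and their transcripts were followed across parental cells and CASP2 knockout clones of 2 human acute myeloid leukaemia lines. They are 2 genes chosen by name among 5069 distinct sets of values in the deposited table, of which 2397 have a settled gene symbol. The choice was made with earlier results of these data known. Both transcripts were abundant in every OCI-AML2 library and at or near 0 in every OCI-AML3 library. Within OCI-AML2 they moved differently: DEFB1 was about 8 to 13 times the parental level in both clones, whereas ORM1 was above the parental level in clone 1 and below it in clone 2.

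ORM1 encodes orosomucoid, also called alpha-1-acid glycoprotein, a heavily glycosylated lipocalin that carries basic and neutral drugs and lipids in plasma. It is an acute-phase protein made mainly by the liver, where interleukin-6, interleukin-1, glucocorticoids and C/EBP transcription factors raise its transcription, and it is also stored in granules of neutrophils. DEFB1 encodes human beta-defensin 1, a cationic peptide held in shape by disulphide bonds, which many epithelia secrete constitutively and which monocytes can also make. Reduction of those bonds by thioredoxin increases its activity against bacteria and fungi, and beta-defensins also attract cells through the chemokine receptor CCR6.

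The tested groups were OCI-AML2 clone 1 and clone 2 and OCI-AML3 clone 1 and clone 2, each derived by CRISPR-Cas9 targeting of CASP2, which encodes the protease caspase-2, and each set against the parental cells of its own line. OCI-AML2 carries wild-type NPM1 (NPM1WT in the labels) and OCI-AML3 the mutant form written NPM1c+, which sends nucleophosmin to the cytoplasm, so every OCI-AML3 group shares that mutation. Cells were untreated, each of the 6 groups had 3 libraries, and each clone is a single derived line, so a difference between a clone and its parent cannot be told apart from clonal variation. Nothing in the labels says that libraries of 1 group came from separate cultures, and p-values then measure only the spread between these libraries. Against parental cells, CASP2 mRNA stood at a log2 difference of -3.05 in OCI-AML2 clone 1 and -2.78 in clone 2 (SE 0.11 each, limma adjusted p = 4.2e-13 for clone 2). In the OCI-AML3 clones labelled as knockouts it stood at -0.08 in clone 1 and 0.15 in clone 2 (SE 0.11 each), so CASP2 mRNA gives no check of the label in that line.

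Values are TPM, a relative transcript abundance scaled for transcript length and library size, so levels of different genes can be set side by side. In bulk RNA a lower level can come from fewer expressing cells or from less RNA per cell, which cannot be told apart here. The table lists part of each library, 170140 to 199403 TPM, and its lines look selected for a change: 97.4% pass a log2 ratio of 0.95 in OCI-AML2 clone 1, in both clones of OCI-AML3 or between parental cells of the lines. Differences in those 3 kinds of comparison, and between the clone changes of the lines, are therefore given as descriptions, without a test, and tests are kept for OCI-AML2 clone 2 against parental cells and for clone 2 against clone 1 within each line. These still share libraries with the selected comparisons. Of the blood-cell markers listed for these blasts, 2 of 14 stand in the table under a settled symbol, ANPEP and ITGAM, with a summed level of 0.320 to 2.20 TPM in OCI-AML2 libraries and 27.2 to 70.9 TPM in OCI-AML3 libraries. This is too few to check the labelled cell type.

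The symbols ORM1 and DEFB1 each stand on 2 lines of the table, with different values. The line taken for ORM1 has its values repeated under COG6, and the line taken for DEFB1 has its values repeated under PPM1E, in both cases with the 3 values of OCI-AML3 clone 1 shifted by 1 place. In all 194 sets that occur on 2 lines of the unshifted order and 1 of the shifted order, the 2 unshifted lines carried the same symbol, and ORM1 and DEFB1 are the unshifted ones of their pairs. With pairs sorted as text by the identifier of the shifted line, identifiers of the unshifted lines kept text order in 1199 of 1200 steps. This order would hold equally with the roles of the 2 symbols exchanged in all pairs. It therefore does not tell ORM1 from COG6 or DEFB1 from PPM1E. The second ORM1 line is the shifted copy of values that belong to IRF8, and the second DEFB1 line is a single line with no settled symbol. Neither was used. All values below rest on this reading of the table.

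ORM1 was among the most abundant transcripts listed for OCI-AML2. The clone 1 libraries held 7106, 5697 and 6831 TPM, the clone 2 libraries 1570, 1876 and 1863 TPM, and the parental libraries 3897, 4363 and 3809 TPM. The 3 groups did not overlap: every clone 1 library lay above every parental library and every clone 2 library below. How many of all sets separate in this way was not counted, so nothing further is read from it. Means were 6545 ± 747 TPM in clone 1, 1769 ± 173 TPM in clone 2 and 4023 ± 298 TPM in parental cells (SD, n = 3 each). By definition of the unit these means are 0.654%, 0.177% and 0.402% of all transcripts. Ranked by TPM among the 5069 sets, ORM1 was 3rd or 4th in the clone 1 libraries, 11th to 16th in the clone 2 libraries and 5th or 6th in the parental libraries.

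In clone 1 the mean ORM1 level was 1.63 times that of parental cells, a log2 difference of 0.70 (SE 0.20), given as a description. Nothing is read from this beside the background, as 35.1% of the 4413 sets tested were called higher in clone 1. In clone 2 it was 44.0% of the parental mean, and ORM1 fell in clone 2 by limma's test (log2 difference -1.19, SE 0.20, adjusted p = 4.9e-05, lower in 3 of 3 libraries). In that comparison 27.5% of all sets were called lower, so a call of this kind is common in the table. Set directly against clone 1, clone 2 held 27.0% of the ORM1 level (log2 difference -1.88, SE 0.20, limma adjusted p = 3.3e-07), where 29.0% of all sets were called lower. As a background count, 175 of the 4413 sets (3.97%) were called higher in clone 1 and lower in clone 2 than in parental cells.

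**Figure D1:**
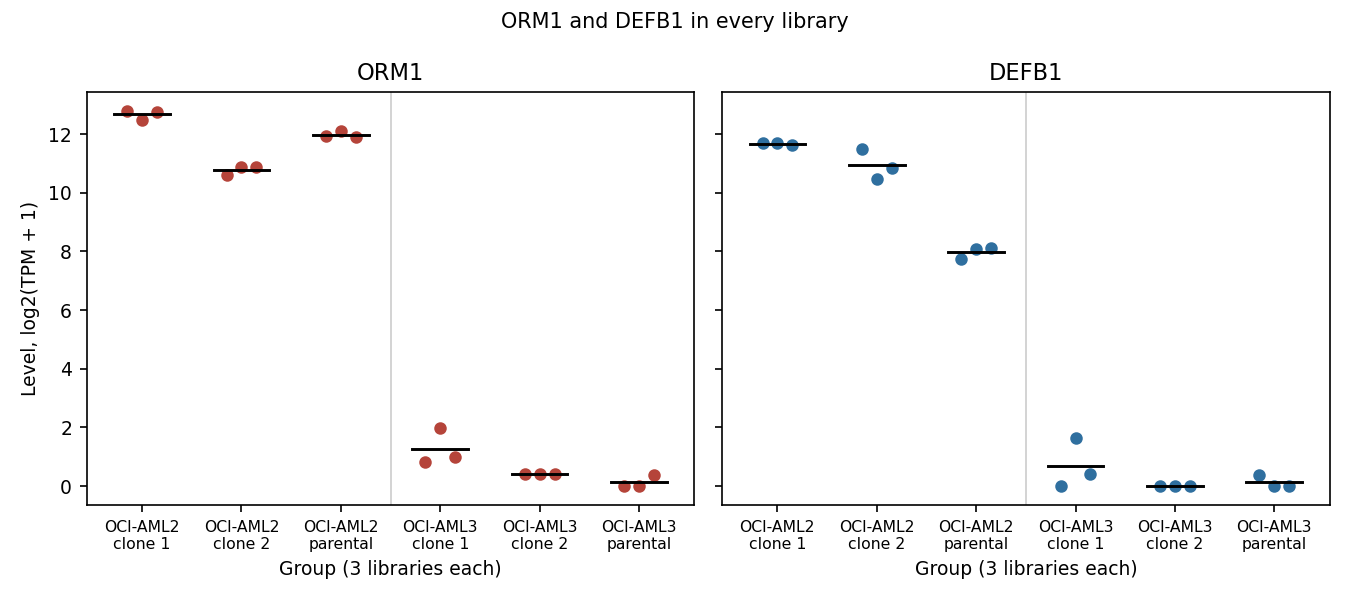
Level of ORM1 (left) and DEFB1 (right) in each library as log2(TPM + 1), by group. Points are libraries, 3 per group, and the bars are group means. All OCI-AML2 libraries lie far above all OCI-AML3 libraries, ORM1 is highest in OCI-AML2 clone 1 and lowest of that line in clone 2, and DEFB1 is higher in both OCI-AML2 clones than in OCI-AML2 parental cells.

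ORM1 has a close neighbour, ORM2, which encodes the second plasma form of orosomucoid. In GENCODE 29 both coding sequences are 606 bases long and 94.9% identical, with a longest identical stretch of 206 bases, so reads from one gene could be counted for the other. The single line printed as ORM2, whose symbol is not settled, held 0 to 0.330 TPM in OCI-AML2 libraries and 0.130 to 0.790 TPM in OCI-AML3 libraries. The sources used here do not say how reads shared by the pair were assigned, and the ORM1 values may include reads of ORM2.

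Because ORM1 is a known target of C/EBP, STAT and glucocorticoid receptor, the stretch before its start is shown with the matches to their short motifs. The sequence is from RefSeq on GRCh38.p14, chr9:114322848-114323055, plus strand, and ends just before the first base that GENCODE 29 annotates as ORM1 transcript. Capitals mark matches to the C/EBP motif TTNNGNAA, searched on both strands.
ORM1 upstream: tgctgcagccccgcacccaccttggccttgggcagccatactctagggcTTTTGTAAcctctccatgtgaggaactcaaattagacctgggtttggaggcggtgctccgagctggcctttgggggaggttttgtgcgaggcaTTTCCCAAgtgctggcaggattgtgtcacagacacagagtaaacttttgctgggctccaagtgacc
The 2 matches begin 201 and 108 bases before the RefSeq start. Of 35116 windows cut in the same way from all promoters, 30.0% hold at least 1 match to this motif. Neither the glucocorticoid receptor half-site TGTTCT nor the STAT motif TTCNNNGAA, both searched on both strands, occurs in these 208 bases, against 10.5% and 5.67% of all windows. These letters describe the window and say nothing about binding in these cells.

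In OCI-AML2 the clone 1 libraries held 3294, 3322 and 3200 TPM of DEFB1, the clone 2 libraries 2883, 1429 and 1823 TPM, and the parental libraries 212, 267 and 277 TPM. The groups did not overlap, and the lowest clone library, at 1429 TPM, lay above the highest parental one, at 277 TPM. The share of all sets that separate like this was not counted either. Means were 3272 ± 64.0 TPM in clone 1, 2045 ± 752 TPM in clone 2 and 252 ± 35.2 TPM in parental cells (SD, n = 3 each). The clone 2 libraries varied most, with an SD of 36.7% of the mean, against 1.96% of the mean in clone 1 and 13.96% in parental cells. Among the 5069 sets DEFB1 ranked 11th in all 3 clone 1 libraries, 7th to 18th in clone 2 and 71st to 90th in parental cells.

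The mean DEFB1 level in clone 1 was 12.97 times the parental mean, a log2 difference of 3.70 (SE 0.29), given as a description. In clone 2 it was 8.11 times the parental mean, and DEFB1 rose there by limma's test (log2 difference 2.96, SE 0.29, adjusted p = 6.9e-08, higher in 3 of 3 libraries). Of all sets tested, 38.3% were called higher in that comparison. Against clone 1, in a comparison where 29.0% of all sets were called lower, clone 2 held 62.5% of the DEFB1 level (log2 difference -0.74, SE 0.29, limma adjusted p = 0.0384). This last call was not stable. It ended without clone 2 replicate 2 (log2 difference -0.51, adjusted p = 0.183) or clone 2 replicate 3 (adjusted p = 0.0959), and without clone 1 replicate 1 (adjusted p = 0.0773), replicate 2 (adjusted p = 0.0798) or replicate 3 (adjusted p = 0.0715), within a range of 0.00296 to 0.433 over all alternatives. It also ended with the replicate number as a block (adjusted p = 0.0510). The SE comes from a spread shared by all 18 libraries, near-zero OCI-AML3 values included. At both ends of the range the log2 difference stayed at -0.74 and only the SE moved. It was 0.19 without OCI-AML3 clone 1 replicate 2 and 0.75 with a pseudocount of 0.1.

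The balance of the pair therefore differed between the 3 OCI-AML2 groups. DEFB1 was 0.464, 0.583 and 0.468 times ORM1 in the clone 1 libraries, 1.84, 0.762 and 0.979 times in the clone 2 libraries, and 0.0544, 0.0613 and 0.0728 times in the parental libraries. The ratio was lowest in parental cells, and DEFB1 exceeded ORM1 in 1 library only, clone 2 replicate 1. Summed, the pair made up 0.902% to 1.04% of all transcripts in clone 1, 0.331% to 0.445% in clone 2 and 0.409% to 0.463% in parental cells. In clone 2 the sum lay within the parental range only for replicate 1, at 0.445%. For replicates 2 and 3, at 0.331% and 0.369%, it lay below every parental library.

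**Figure D2:**
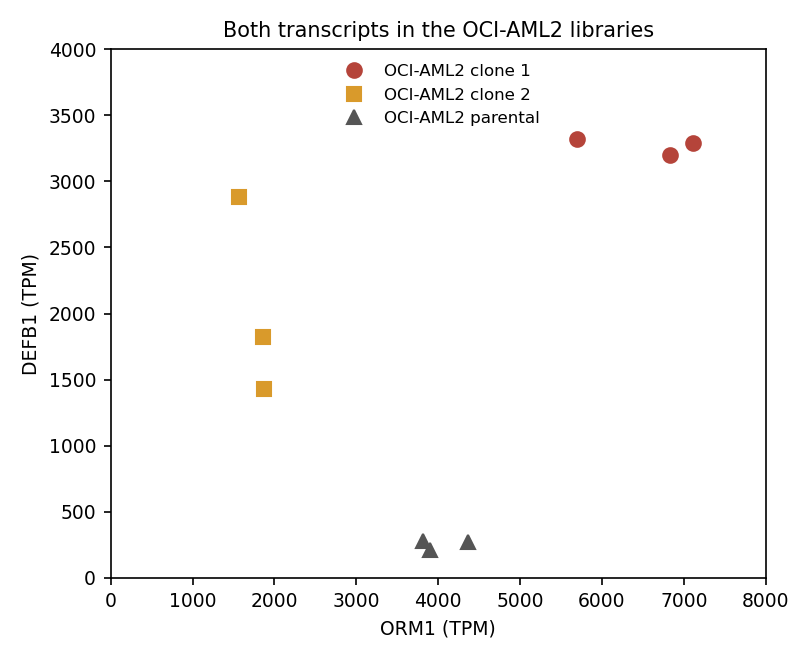
DEFB1 (vertical axis, TPM) against ORM1 (horizontal axis, TPM) in the 9 OCI-AML2 libraries, on linear axes. Each point is a library. Clone 1 is high for both transcripts, clone 2 has more DEFB1 and less ORM1 than parental cells, and the parental libraries lie at 212 to 277 TPM of DEFB1.

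In OCI-AML3 both transcripts were close to the lower end of the scale. ORM1 was listed with 0.760, 2.91 and 0.970 TPM for clone 1, with 0.330, 0.340 and 0.320 TPM for clone 2, and with 0, 0 and 0.300 TPM for parental cells. Every clone 1 library lay above every clone 2 library, and every clone 2 library above the parental ones, but the lowest clone 2 library, at 0.320 TPM, and the highest parental one, at 0.300 TPM, are nearly equal. DEFB1 was listed with 0, 2.09 and 0.340 TPM for clone 1, with 0 for all 3 clone 2 libraries, and with 0.310, 0 and 0 TPM for parental cells. These groups overlapped. The number of reads behind such values is unknown, and a listed 0 need not mean that no transcript was present, so no fold is given for this line.

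On the log2(TPM + 1) scale, which compresses low values, ORM1 in OCI-AML3 was 1.13 above parental cells in clone 1 and 0.29 above them in clone 2 (SE 0.20 each, descriptions). Of all sets, 31.3% were called higher in clone 1 and 31.6% in clone 2. The ORM1 difference of clone 2 from clone 1 was -0.84 (SE 0.20, limma adjusted p = 0.0210, and 0.186 when only these 2 groups were fitted), in a comparison where 6.82% of all sets were called and 2.88% were called lower. Clone 1 replicate 2, at 2.91 TPM, carried much of this difference: without it the log2 difference was -0.49 (adjusted p = 0.0360). The call ended without clone 2 replicate 1 (adjusted p = 0.0576) or clone 2 replicate 2 (adjusted p = 0.0731), within a range of 0.00683 to 0.186 over all alternatives. ORM1 was under 3 TPM in every one of these libraries and entered the fit only through its OCI-AML2 values. No change between the OCI-AML3 clones is therefore claimed. DEFB1 in OCI-AML3 was 0.55 above parental cells in clone 1 and at -0.13 in clone 2 (SE 0.29 each, descriptions). These values rest on single libraries, being 0.08 for clone 1 without clone 1 replicate 2, 0.90 without clone 1 replicate 1, and 0 for clone 2 without parental replicate 1. Between these clones DEFB1 did not pass (log2 difference -0.68, SE 0.29, limma adjusted p = 0.168), and without clone 1 replicate 2 the difference was -0.21 (adjusted p = 0.646).

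Between the parental cells, OCI-AML3 lay below OCI-AML2 by -11.85 (SE 0.20) for ORM1 and by -7.84 (SE 0.29) for DEFB1 on the log2(TPM + 1) scale, both given as descriptions, with 43.4% of all sets called lower. With values at 0 in OCI-AML3, the size of these differences depends on the pseudocount. The clone changes also differed between the lines. For ORM1 the mean clone change in OCI-AML3 minus that in OCI-AML2 was 0.95 (SE 0.25), and for DEFB1 it was -3.12 (SE 0.36), again as descriptions, and 81.7% of all sets were called in 1 direction or the other. For ORM1 this rests on an OCI-AML2 mean of -0.24 over clones that lay on opposite sides of parental cells.

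**Figure D3:**
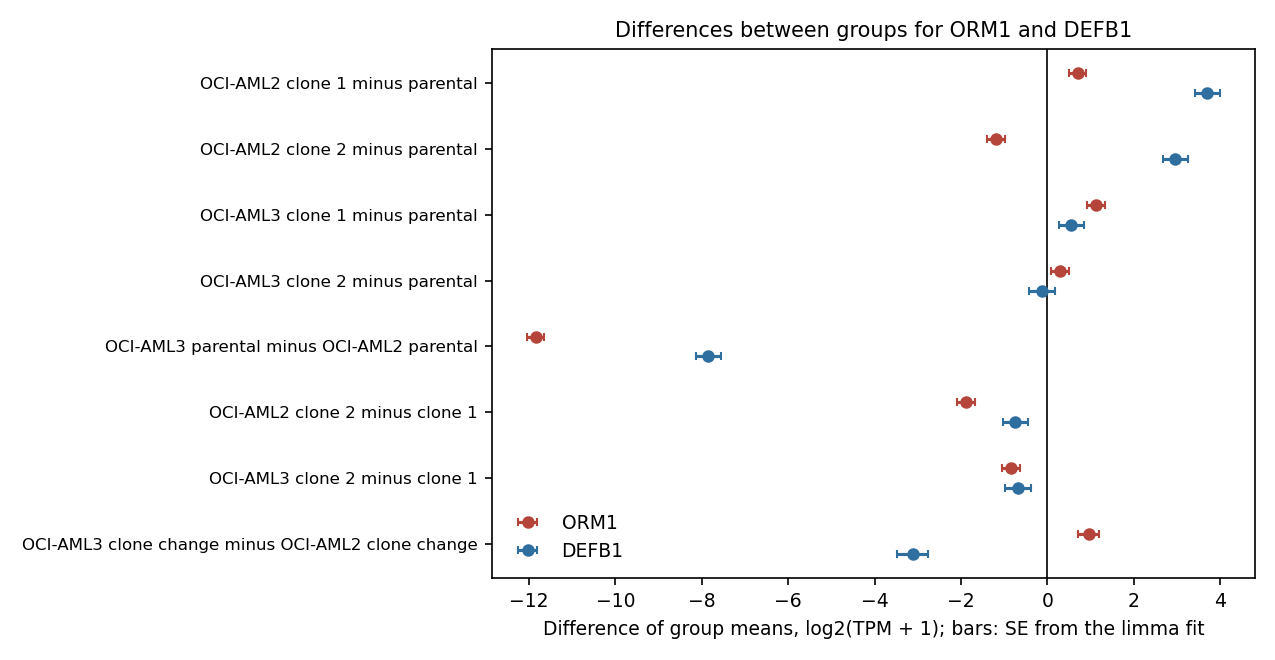
Differences of group means for ORM1 and DEFB1 in the 8 comparisons, as log2(TPM + 1), with SE bars from the fit over all 18 libraries. The difference between the parental lines is by far the widest for both genes, and ORM1 lies on opposite sides of 0 in OCI-AML2 clone 1 and clone 2, at 0.70 and -1.19.

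Across the 6 groups, and among tested sets with a settled symbol, the gene most like ORM1 was DEFB1, and the gene most like DEFB1 was ORM1. Likeness was measured as the root mean square difference between the 6 group means of log2(TPM + 1), each gene centred on its own mean, over 2126 other tested sets with a settled symbol. The value for the pair was 1.41. After DEFB1, genes near to ORM1 were APOC2, an apolipoprotein that activates lipoprotein lipase, at 2.35, FIBCD1, a chitin-binding receptor, at 2.46, and S100A9 at 2.73. After ORM1, the nearest to DEFB1 were S100A9 at 1.62 and S100A8 at 1.96, the subunits of calprotectin, then FIBCD1 at 2.03 and APOC2 at 2.06. These are descriptions over 6 groups and carry no test. Single lines had their symbol settled only with a parental log2 ratio under 0.6. Single-line genes with a wide difference between the parental lines were therefore not compared. The difference between the lines is the widest part of both patterns. Within OCI-AML2, ORM1 and DEFB1 moved in opposite directions in clone 2.

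With limits chosen after the values were seen, ORM1 and DEFB1 were the only 2 of 5069 sets with at least 200 TPM in all 9 OCI-AML2 libraries and at most 3 TPM in all 9 OCI-AML3 libraries. The limits lie close to the lowest DEFB1 value in OCI-AML2, 212 TPM, and the highest ORM1 value in OCI-AML3, 2.91 TPM. That both genes pass was thus fixed by the limits. The step between the lines is not particular to the pair. FIBCD1 was at least 110 TPM in OCI-AML2 and at most 1.4 TPM in OCI-AML3 libraries, and APOC2 at least 483 and at most 11.3 TPM. S100A9 resembled DEFB1 in the OCI-AML2 clones, at 2539 ± 222 TPM in clone 1 and 1552 ± 138 TPM in clone 2, but stood lower in parental cells, at 79.3 ± 7.34 TPM (SD, n = 3 each). APOC2 resembled ORM1 in being already high in parental cells, but was 663 ± 41.02 TPM in clone 1, 559 ± 49.5 TPM in clone 2 and 537 ± 79.5 TPM in parental cells, with a parental range that overlaps that of each clone.

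**Figure D4:**
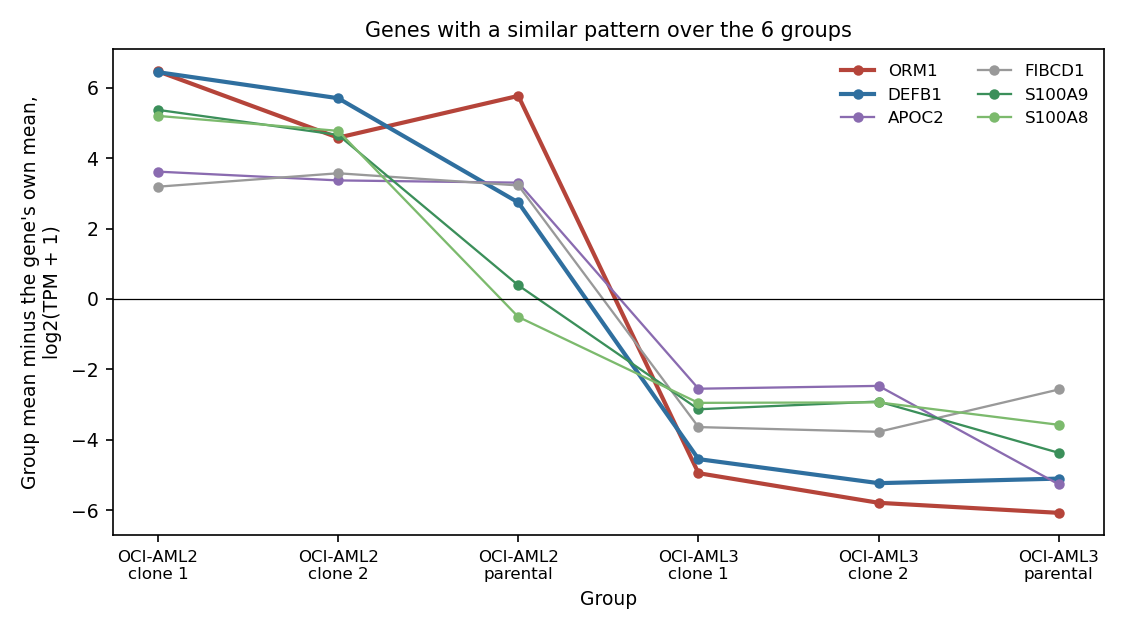
Group means of log2(TPM + 1) for ORM1, DEFB1 and 4 genes near to either, each gene centred on its own mean over the 6 groups. All 6 lines step down between OCI-AML2 and OCI-AML3, and the step is deepest for ORM1. DEFB1, S100A9 and S100A8 are higher in both OCI-AML2 clones than in OCI-AML2 parental cells.

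Other secreted antimicrobial genes gave a mixed picture beside DEFB1 in OCI-AML2. Of 45 listed genes 22 stand in the table and 11 have a settled symbol. Of the 10 besides DEFB1, 5 rose in both clones and 0 fell in both (median log2 change 0.98, against 0.06 over all sets tested). The background in that line was 23.8% higher and 14.6% lower. CTSG (-1.14) and PRTN3 (-0.48) were lower in clone 2 but higher in clone 1 (0.28 and 0.58). In clone 1 only, RNASE6 was lower (-1.13), and AZU1 (1.69) and DEFA1 (3.15) were higher. Counts for this and the following lists are of genes called in both clones. They are descriptions, since lines of the table were selected for changes of this kind. The largest changes were those of S100A8 (5.50), BPI, a neutrophil protein that binds lipopolysaccharide (4.74), and S100A9 (4.63), as means of both clones. BPI stood at 171 ± 21.9 TPM in clone 1, 33.8 ± 5.42 TPM in clone 2 and 1.88 ± 0.114 TPM in parental cells. DEFA1, an alpha-defensin of neutrophils, averaged 21.8 ± 1.98 TPM in clone 1, 1.62 ± 0.989 TPM in clone 2 and 1.66 ± 0.874 TPM in parental cells. How reads were divided between DEFA1 and its near-identical copies DEFA1B and DEFA3 is not known, so its values are uncertain. In OCI-AML3, 1 of these 10 genes rose in both clones and 3 fell, among them the granule proteases CTSG (-2.48) and PRTN3 (-1.99), while S100A9 rose (1.35). The background there was 28.7% higher and 38.3% lower.

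Of 37 acute-phase and plasma protein genes 12 stand in the table, 7 have a settled symbol, and 6 were tested besides ORM1. In OCI-AML2, 1 rose in both clones and 2 fell (median -0.14, with 23.8% of all sets higher and 14.6% lower). LRG1, a leucine-rich acute-phase glycoprotein, rose to 153 ± 14.3 TPM in clone 1 and 152 ± 13.2 TPM in clone 2, against 34.8 ± 1.01 TPM in parental cells. C3, the central complement component (-0.55), and SERPINA1, the elastase inhibitor alpha-1-antitrypsin (-0.54), fell, with means of at most 2.08 TPM in every OCI-AML2 group. In OCI-AML3, 3 rose and 1 fell (median 1.01, with 28.7% of all sets higher and 38.3% lower). LRG1 (2.05) and SERPINA1 (2.37) rose, and SERPING1, the C1 inhibitor (-2.44), fell. SERPINA1 reached 26.4 ± 1.19 TPM in clone 1 and 27.5 ± 2.25 TPM in clone 2, against 4.39 ± 0.180 TPM in parental cells. The lipocalin family had 4 tested members besides ORM1, of which 0 rose and 1 fell in OCI-AML2: PTGDS, prostaglandin D synthase (-1.90), while LCN12 (0.13) and LCN15 (-0.13) did not pass. In OCI-AML3 0 rose and 3 fell: LCN15 (-1.81), the retinol carrier gene RBP4 (-1.17) and LCN12 (-0.70). Their parental means were 3.61 TPM for LCN15, 1.81 TPM for RBP4 and 1.71 TPM for LCN12.

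Among 34 genes of the C/EBP, interleukin-6, interleukin-1 and glucocorticoid pathways that regulate ORM1 in liver, 15 were listed and 9 of these had their symbol settled. In OCI-AML2, 3 rose in both clones and 2 fell, beside 23.8% and 14.6% of all sets. IL1R1, the interleukin-1 receptor, rose to 3.04 ± 0.314 TPM in clone 1 and 2.39 ± 0.320 TPM in clone 2, against 0.447 ± 0.0862 TPM in parental cells. The cytokine gene TNF rose (0.72), and IL1B, which encodes interleukin-1 beta, fell (-1.22). In OCI-AML3, 2 rose and 6 fell, beside 28.7% and 38.3% of all sets, with OSMR, the oncostatin M receptor (2.07), higher and OSM, its ligand (-1.32), and the clock gene PER1 (-1.19) lower. The C/EBP family genes, CCR6 and the thioredoxin genes are not analysed here. Of 23 receptors, innate sensors and redox partners 13 were listed, 6 had their symbol settled and 5 were tested. TLR2, a sensor of bacterial lipopeptides (-1.22), and CD14, the lipopolysaccharide co-receptor (-0.77), fell in OCI-AML2 and TLR4 (0.71) rose. All 5 rose in OCI-AML3, where 28.7% of all sets rose in both clones, with CD14 at 4.72, CCR2, a chemokine receptor of monocytes, at 2.06, and TLR4 at 1.29.

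Markers of the tissues that are the main sources of both proteins in the body were scarce in the table. Of 17 hepatocyte markers 1 had a settled symbol, CYP2E1, at 7.72 to 11.3 TPM in OCI-AML2 clone 1, 3.30 to 3.69 TPM in clone 2 and 2.97 to 4.44 TPM in parental cells. Of 10 epithelial markers 1 had a settled symbol, ESRP1, at 0 to 0.250 TPM in all OCI-AML2 libraries and 0.150 to 1.16 TPM in OCI-AML3 libraries. Of 6 lymphocyte markers 2 had a settled symbol, CD3D and NKG7, and their summed level in OCI-AML2 was above parental cells in both clones, as DEFB1 was, but higher in clone 2 than in clone 1, at 119.7 to 139.6 TPM in clone 1, 152.0 to 195.1 TPM in clone 2 and 66.7 to 70.4 TPM in parental cells. In OCI-AML3 it was 2.71 to 3.94 TPM in clone 1, 2.88 to 6.29 TPM in clone 2 and 12.6 to 20.0 TPM in parental cells. The fibroblast marker COL1A2, 1 of 6 listed, was at most 0.02 TPM in every OCI-AML2 library, and 0 of 6 erythroid markers had a settled symbol. The part of these markers in the ORM1 and DEFB1 values was not tested.

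**Figure D5:**
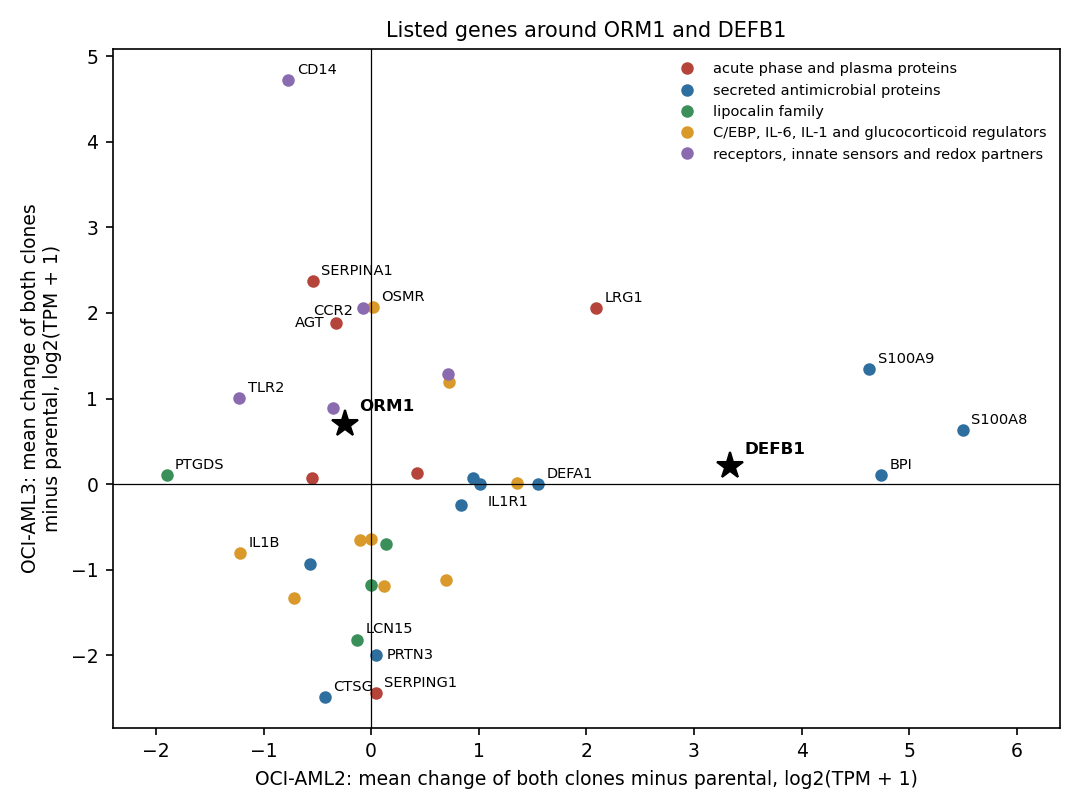
Mean log2 change of both clones against parental cells in OCI-AML2 (horizontal axis) and OCI-AML3 (vertical axis) for the listed genes with a settled symbol, coloured by list, with ORM1 and DEFB1 as stars. DEFB1 lies to the right with S100A8, S100A9 and BPI, near 0 on the OCI-AML3 axis. ORM1 lies at -0.24 on the OCI-AML2 axis, the mean of 0.70 in clone 1 and -1.19 in clone 2.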

How the data were processed

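The authors deposited TPM values of 18 libraries in 1 table, per the file headers. Aligner, counting method and genome build were not given in the sources used here. Read depth is unknown. All 18 value columns matched a sample title and 0 did not. The table has 6999 lines. Identical sets of values were counted once (5069 sets), with the 3 OCI-AML3 clone 1 values compared in any order. Symbols were settled for 413 sets repeated under 1 symbol, 1234 by replicate order, 77 by text order of identifiers and 673 single lines with a parental log2 ratio under 0.6 (ratios with 0.01 TPM added). The fit used limma 3.58.1 (R 4.3.3) on log2(TPM + 1) of the 4413 sets that reached 1 TPM in 3 or more libraries (656 did not; 2127 of the 4413 had a settled symbol). The fit had 1 mean per group and an intensity trend. The spread of each set was pooled over all 18 libraries, so near-zero OCI-AML3 values also entered the SE of OCI-AML2 comparisons. P-values are two-sided, Benjamini-Hochberg adjusted over all sets within a comparison, threshold 0.05. Both members passed the minimum through OCI-AML2. The fit was tested on simulated data. Tables were handled with pandas 2.3.3, and ORM1 and ORM2 were aligned with Biopython 1.88.

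Replicate numbers were not used to pair libraries in the main fit. Same-numbered libraries of different groups deviated together (correlation over 0.1) in 5 of 45 pairings, and the correlations ran from -0.34 to 0.18. Whether libraries shared a preparation or batch was not tested. The members and lists were chosen with earlier results of these data known. Named genes were the members, CASP2, any line printed as ORM2, the 3 listed genes with the largest mean change per list and line, and the 5 nearest genes by likeness, 1 of which is not reported here. DEFA1 and the library comparison in the closing section were chosen after values were seen. Alternatives changed the pseudocount, minimum, scaling, trend, libraries fitted, block, counting of lines, member line and each library.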

Additional observations from a re-analysis of the deposited data

Results flagged for a closer look

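The change of ORM1 against parental cells differed between the OCI-AML2 clones, since the direct comparison of clone 2 with clone 1 passed (log2 difference -1.88, limma adjusted p = 3.3e-07). In that comparison 29.0% of all sets were called lower. All 3 clone 2 libraries lay below and all 3 clone 1 libraries above the parental range, a separation whose share over all sets was not counted. In the OCI-AML3 clones labelled as knockouts the ORM1 difference of clone 2 from clone 1 was -0.84 (limma adjusted p = 0.0210), at near-zero levels of 0.320 to 0.340 TPM in clone 2 and 0.760 to 2.91 TPM in clone 1. It no longer passed with only these groups fitted (adjusted p = 0.186), or without clone 2 replicate 1 (adjusted p = 0.0576) or replicate 2 (adjusted p = 0.0731). ORM1 entered the fit only through its OCI-AML2 values, so no change between the OCI-AML3 clones is claimed from this test. The change of DEFB1 differed between OCI-AML2 clone 2 and clone 1 by a log2 difference of -0.74 (limma adjusted p = 0.0384), a call that held in 17 of 26 alternatives. Here too, 29.0% of all sets were called lower.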

How the results depend on the processing

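Over 26 alternatives to each of the 16 member differences, 0 of 416 values reversed, apart from the unused lines given last. The ORM1 and DEFB1 calls for OCI-AML2 clone 2 against parental cells, and the ORM1 call for clone 2 against clone 1 there, held in 26 of 26. The DEFB1 difference between OCI-AML2 clones lost its call with a pseudocount of 0.1 (-0.74), when libraries were rescaled by medians of ratios (-0.65, adjusted p = 0.0626), with only the groups compared (-0.74, adjusted p = 0.0743) and with the replicate block (-0.74, adjusted p = 0.0510), and leaving out libraries it ran from -1.02 to -0.51. The block changed no other member call. The ORM1 difference between OCI-AML3 clones lost its call with only the groups compared (-0.84, adjusted p = 0.186), and leaving out libraries it ran from -1.06 to -0.49. A pseudocount of 0.1 moved differences that involve OCI-AML3. For ORM1 they became 3.15 (clone 1), 1.44 (clone 2), -14.63 (between parental lines) and 2.54 (between clone changes). For DEFB1 they became 1.52, -0.68 and -10.61 for the first 3. Between OCI-AML3 clone 2 and clone 1 they became -1.71 for ORM1 (adjusted p = 0.0421) and -2.20 for DEFB1 (adjusted p = 0.103). Called sets between OCI-AML3 clones numbered 301, against 166 with a pseudocount of 0.1, 155 with only the groups compared, and 102 to 370 leaving out libraries: 143, 181 and 180 without clone 1 replicate 1, 2 or 3, and 171 and 102 without clone 2 replicate 1 or 2. The median shift of a set on rescaling was -0.13 to 0.19 over the comparisons. The unused line printed as ORM1, settled as IRF8, gave -1.12 and -0.35 (OCI-AML2 clone 1 and clone 2), -0.87 and -0.70 (OCI-AML3 clones), 1.66 (between parental lines), 0.77 and 0.17 (clone 2 against clone 1 in OCI-AML2 and OCI-AML3) and -0.0487 (between clone changes). The unused line printed as DEFB1, with no settled symbol, gave 0.49 and 1.22 (OCI-AML2 clone 1 and clone 2), 1.23 (between parental lines), 0.73 (clone 2 against clone 1 in OCI-AML2) and -0.80 (between clone changes).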

Other observations

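Within OCI-AML3 clone 1, the library in the second place of the unshifted order held the highest value of both ORM1 and DEFB1, at 2.91 and 2.09 TPM. The same library was the highest of the 3 for S100A9 (6.73 TPM, against 5.90 and 5.35), S100A8 (4.36 TPM), APOC2 (10.03 TPM) and FIBCD1 (0.270 TPM), so for 6 of the 6 genes compared. These genes are the members and genes picked for likeness to them. How often this library was the highest over all sets was not counted, so nothing is read from the 6 of 6. The ORM1 and DEFB1 values of this library equal 0.0445% and 0.0639% of the mean level in OCI-AML2 clone 1. The other 4 genes gave 0.509% (S100A8), 0.265% (S100A9), 0.217% (FIBCD1) and 1.51% (APOC2). Without this library the ORM1 difference of OCI-AML3 clone 1 against parental cells was 0.77 and that of DEFB1 0.08, on the log2(TPM + 1) scale. Where this library stood relative to the other libraries in preparation or sequencing is not given in the sources used here, and a cause was not tested.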
